A study of Mus musculus with 110 samples.

Results

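Interscapular brown fat (iBAT) was compared with inguinal white fat (iWAT) of mice that had received both stimuli, a methionine-restricted diet and cold, to describe what still separated the depots once iWAT had browned. The comparison held 13 libraries of 110 in the series, 7 of iBAT and 6 of iWAT from MetR_CE mice, chosen by depot and treatment as the sample titles give them. The untreated difference came from 6 iBAT and 7 iWAT libraries of Ctrl_RT mice. All were wild-type male C57BL/6N mice, single-housed and 16 weeks old when the experiment ended. Both diets lacked cysteine, with 0.86% methionine in the Ctrl diet and 0.12% in the MetR diet by the sample labels; the published methods state a slightly lower content for the Ctrl diet. Feeding lasted 7 days at 22 °C, and the MetR_CE mice then spent a further 24 h at 4 °C. RNA was taken from the whole depot and selected for poly(A), so fewer cells of a type and less RNA per cell cannot be told apart, and the diet and the cold cannot be separated within the MetR_CE group.

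Brown adipocytes are built to make heat. Their many mitochondria carry uncoupling protein 1 (UCP1), which lets protons return across the inner membrane without making ATP, so that fatty acids and glucose are burnt as heat when noradrenaline arrives from sympathetic nerves. Inguinal fat stores triglyceride in large white adipocytes and can form UCP1-bearing beige adipocytes in the cold. The brown and the inguinal depots arise at different positions in the embryo, and adult fat keeps position-specific expression of Hox and other developmental factors.

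The results turned on 3 kinds of gene, and the promoter of 1 gene of each kind is printed: Ucp1 for heat production, Lep (leptin, the satiety hormone of white adipocytes) for the white programme and Zic1 (a zinc finger transcription factor of dorsal mesoderm and a marker of classical brown fat) for positional identity. Each sequence holds the 250 bases before the annotated start of the gene, on the gene's own strand, from RefSeq on GRCm38.p6. Capitals mark a TATA motif, TATAA or TATATA, which was searched on the gene's strand in the last 50 bases. The windows lie at chr8:83290098-83290347 (plus strand) for Ucp1, chr6:29059971-29060220 (plus strand) for Lep and chr9:91365769-91366018 (minus strand) for Zic1.
Ucp1: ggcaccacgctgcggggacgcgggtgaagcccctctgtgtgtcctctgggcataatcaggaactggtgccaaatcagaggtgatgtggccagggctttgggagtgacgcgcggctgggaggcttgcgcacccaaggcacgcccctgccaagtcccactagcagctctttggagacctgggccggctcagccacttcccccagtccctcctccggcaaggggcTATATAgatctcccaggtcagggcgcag
Lep: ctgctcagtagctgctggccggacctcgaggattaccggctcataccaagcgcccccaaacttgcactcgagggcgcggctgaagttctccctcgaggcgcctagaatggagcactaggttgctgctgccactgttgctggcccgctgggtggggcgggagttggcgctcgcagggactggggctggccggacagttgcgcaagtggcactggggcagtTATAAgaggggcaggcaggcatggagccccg
Zic1: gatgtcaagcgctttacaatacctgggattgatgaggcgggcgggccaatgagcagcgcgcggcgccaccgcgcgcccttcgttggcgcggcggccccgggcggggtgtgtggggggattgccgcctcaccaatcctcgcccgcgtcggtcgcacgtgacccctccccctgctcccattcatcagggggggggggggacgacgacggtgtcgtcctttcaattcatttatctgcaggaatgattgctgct
The motif began 28 bases before the start of Ucp1 and 31 bases before that of Lep, and the searched window of Zic1 did not hold these letters. Of the thermogenic genes with a promoter entry, 5 of 18 (27.8%) held the motif, among them Ucp1 and Dio2, as did 3 of 11 white adipocyte genes (27.3%) and 1 of 22 Hox genes (4.55%), beside 6.52% of 27025 genes. The full cAMP response element TGACGTCA was present on either strand in the 250 bases of 1 of 18 thermogenic genes (Dio2), beside 1.77% of all genes. These matches are descriptions of letters and were not tied to any change.

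Library totals ran from 12672686 to 33141066 counts over the 26 libraries, so depth limited only genes of a few reads. Levels below are counts per 1000000 counts of the library (CPM) after scaling by the trimmed mean of M values (TMM). Mitochondrial transcripts took 12.11% to 13.94% of counts in iBAT of MetR_CE mice, 5.988% to 8.352% in iWAT of MetR_CE mice and 3.707% to 5.056% in iWAT of Ctrl_RT mice. Ucp1 separated every iBAT from every iWAT library in both conditions. In the 6 MetR_CE mice with both depots, the brown markers Cidea and Cox7a1 were higher in iBAT in 6. The white markers Lep, Retn, Nnat and Agt were higher in iBAT in 0. Of the identity markers, Zic1 separated the depots, whereas Lhx8, a reported brown marker, did not, and En1 was higher in iWAT. The skeletal muscle markers summed to between 24.8 and 734 CPM in the iBAT and between 53 and 4530 CPM in the iWAT libraries of MetR_CE mice, a wide spread within both depots.

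Both stimuli left a large difference between the depots. Of 25960 genes tested, 9391 (36.2%) differed in MetR_CE mice at an adjusted p under 0.05 and a change of at least 1.5-fold, with 3735 higher in iBAT (14.4%) and 5656 higher in iWAT (21.8%). In Ctrl_RT mice 10749 genes (41.4%) differed, 4586 (17.7%) and 6163 (23.7%) in the same order. At a bound of 4-fold the count was 3259 genes (12.6%) in MetR_CE mice, 818 (3.15%) higher in iBAT and 2441 (9.4%) higher in iWAT, and 4402 (17%) in Ctrl_RT mice. The libraries of the depots did not overlap for 8522 genes (32.8%) in MetR_CE mice, 3820 (14.7%) of them higher in iBAT and 4702 (18.1%) in iWAT. With library totals in place of TMM scaling, the median log2 difference over all genes moved from -0.129 to -0.448 in MetR_CE mice, and the share of called genes that were higher in iBAT moved from 39.8% to 21.1%. In Ctrl_RT mice that share moved from 42.7% to 20.3%, so the balance between depots depended on the scaling.

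The depot difference is given as the log2 level in iBAT minus that in iWAT, and the change of that difference between Ctrl_RT and MetR_CE mice was tested as an interaction. The interaction was called for 3667 genes (14.1%), with 1526 positive (5.88%) and 2141 negative (8.25%). With library totals the balance turned, to 2003 positive and 1474 negative. Among the 3667 genes called with TMM, 2289 (8.82% of all genes) had differed in Ctrl_RT mice and moved in the opposite direction, here called narrowed. Another 379 (1.46%) had differed and moved further apart, here called widened. The Ctrl_RT difference enters both the choice of these genes and the change, which by itself favours narrowing over widening. The size of that effect was not tested. The narrowed genes include 44 from the iBAT side and 27 from the iWAT side that passed equality and were called in the other direction in MetR_CE mice. Of the 4586 genes higher in iBAT of Ctrl_RT mice, 2682 (58.5%) were still called in MetR_CE mice, 1128 (24.6%) narrowed and 55 widened. Of the 6163 higher in iWAT, 4029 (65.4%) were still called, 1161 (18.8%) narrowed and 324 (5.26%) widened. Widening thus took 5.26% of the genes on the iWAT side and 1.2% of those on the iBAT side, a contrast that was not itself tested.

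The depot that moved was mainly iWAT. Of the 1128 narrowed genes that were higher in iBAT, 766 rose in iWAT and 206 fell in iBAT. Of the 1161 that were higher in iWAT, 1032 fell in iWAT and 84 rose in iBAT. Beside these, 2323 genes (8.95%) rose and 3867 (14.9%) fell in iWAT over all genes, and 952 (3.67%) rose and 2394 (9.22%) fell in iBAT. The response of each depot enters the change of the difference, so these counts describe the change and do not add to its test.

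**Figure D1:**
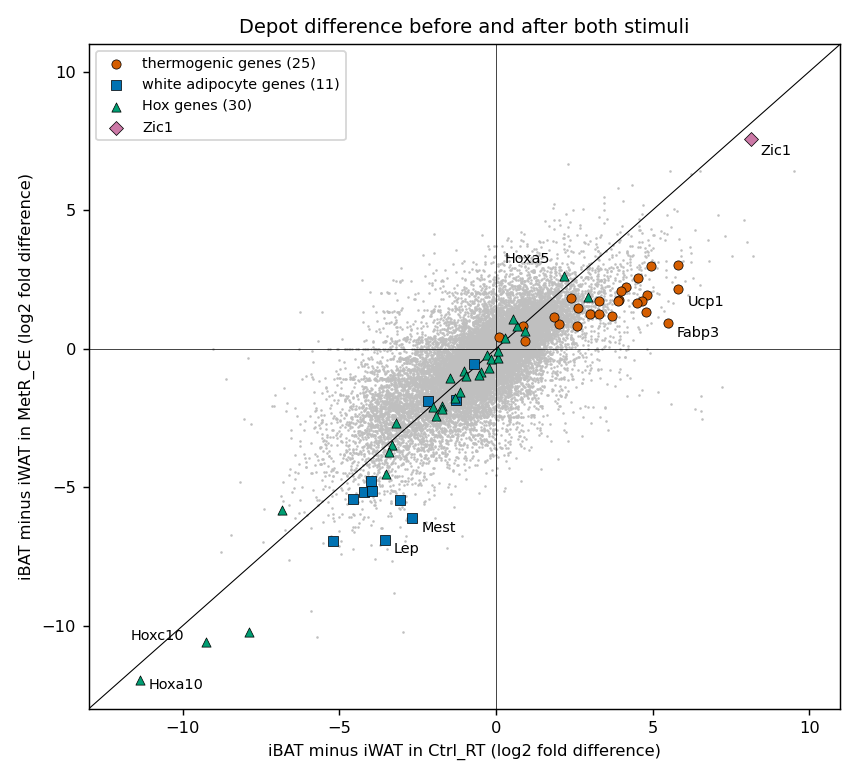
Log2 difference between iBAT and iWAT of each tested gene in Ctrl_RT mice (x axis) and in MetR_CE mice (y axis), with the thermogenic, white adipocyte and Hox genes and Zic1 in colour and a line where both are equal. Thermogenic genes lie to the right of 0 and, except for Adrb3 (0.10 and 0.42), below the line (median 3.91 in Ctrl_RT and 1.65 in MetR_CE), Lep and Mest lie below the line on the iWAT side, and Hox genes follow the line; the fitted value of Hoxa10, at 0 in iBAT, is not a measured size.

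Genes of heat production stayed higher in iBAT, at a much smaller distance. Of the 25 thermogenic genes, 22 were called higher in iBAT of MetR_CE mice (14.4% of all genes) and 0 higher in iWAT (21.8%), against 24 and 0 in Ctrl_RT mice (17.7% and 23.7%). The difference narrowed for 21 of them (8.82% of all genes) and widened for 0 (1.46%). Among all genes higher in iBAT of Ctrl_RT mice, 24.6% narrowed and 1.2% widened. Its median fell from 3.91 to 1.65, beside -0.0718 and -0.129 over all genes. In iWAT 23 of the 25 rose between Ctrl_RT and MetR_CE mice, and in iBAT 8 rose. The number with at least a 4-fold difference went from 21 (4.52% of all genes) to 6 (3.15%), and these 6 were Ucp1, Elovl3, Ppara, Acot11, Slc27a2 and Pank1.

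Ucp1 ranged from 14130 to 17136 CPM (median 15532) in iBAT and from 1966 to 5118 CPM (median 3460) in iWAT of MetR_CE mice. No library of one depot reached the other. The difference was 2.15 ± 0.56 (log2, SE), a 4.43-fold higher level in iBAT (adjusted p = 0.00184), against 5.81 ± 0.63 in Ctrl_RT mice (adjusted p = 4.36e-09). In Ctrl_RT mice the iWAT libraries had spread from 1.14 to 400.2 CPM, with a median of 64.5. The difference narrowed by a log2 change of -3.67 ± 0.76 (adjusted p = 0.000591), and iWAT rose by 4.602. In iBAT the log2 change of 0.94 did not pass the test, although every MetR_CE library lay above the Ctrl_RT range of 6864 to 9806 CPM. The fit used a spread shared by all 4 groups, the wide iWAT libraries of Ctrl_RT mice included. Put as a share, iWAT held 1.78% of the iBAT level of Ucp1 in Ctrl_RT mice and 22.6% in MetR_CE mice, with a 95% interval of 10.2% to 49.9%.

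Other genes of the brown programme were also higher in iBAT, by less than in Ctrl_RT mice. Cidea, which encodes a lipid droplet protein of brown adipocytes, ranged from 1883 to 2101 CPM in iBAT and from 429 to 772 CPM in iWAT (medians 1933 and 555), without overlap. It differed by 1.75 ± 0.28 (adjusted p = 4.3e-06), against 3.93 in Ctrl_RT mice. Dio2, the deiodinase that makes active thyroid hormone within the cell, ranged from 207 to 388 CPM in iBAT (median 309) and from 78.8 to 209 CPM in iWAT (median 111), and 1 iWAT library just reached the iBAT range. Its difference of 1.32 ± 0.27 (adjusted p = 0.000167) came from 4.79 in Ctrl_RT mice. Elovl3, a fatty acid elongase, ranged from 1574 to 1959 CPM in iBAT and from 213 to 661 CPM in iWAT (medians 1698 and 339) and differed by 2.24 ± 0.46 (adjusted p = 0.00015). Its narrowing of -1.92 ± 0.62 (adjusted p = 0.0232) rested on the processing: DESeq2 gave a change of 0.04723 (adjusted p = 0.985), and edgeR without replicate 1 of iWAT MetR_CE, the highest library, gave an adjusted p of 0.0565.

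Transcriptional regulators of the programme were higher in iBAT too. Ppargc1a, the coactivator of mitochondrial biogenesis, ranged from 180 to 413 CPM in iBAT (median 203) and from 47 to 100.2 CPM in iWAT (median 67.7), with no overlap and a difference of 1.82 ± 0.26 (adjusted p = 7.76e-07). It rose in both depots, by 2.94 in iWAT and 2.37 in iBAT, and the change of the difference, -0.57 ± 0.36, did not pass the test (adjusted p = 0.285). Ppara, the nuclear receptor that drives genes of fatty acid oxidation, was at 211 CPM in iBAT and 43.6 CPM in iWAT (medians) and differed by 2.09 ± 0.26, having narrowed from 4.00. Prdm16 (0.89) and Ebf2 (0.84), which specify thermogenic adipocytes, kept smaller differences. That of Prdm16 narrowed from 2.01, whereas that of Ebf2 was 0.85 in Ctrl_RT mice and its change was -0.02 ± 0.18 (adjusted p = 0.976).

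On the list 3 genes were not called in MetR_CE mice, Pparg and Adrb3 at its near end and Fabp3 beyond some called genes. Pparg, the master regulator of all adipocytes, ranged from 257.3 to 309 CPM in iBAT and from 204 to 266.6 CPM in iWAT (medians 276.9 and 225), with a difference of 0.28 ± 0.13 (adjusted p = 0.0762). Adrb3, the main beta-adrenergic receptor of rodent adipocytes, differed by 0.42 ± 0.17 (adjusted p = 0.0423), below the 1.5-fold bound. Fabp3, a fatty acid binding protein of oxidative tissue, ranged from 319 to 583 CPM in iBAT and from 150 to 460 CPM in iWAT (medians 432 and 192), and the depots overlapped. In Ctrl_RT mice iWAT had held 0.906 to 15.5 CPM of Fabp3, so that the narrowing, -4.54 ± 0.61 (adjusted p = 2.65e-06), was the largest on the thermogenic list. Its remaining difference of 0.94 ± 0.42 (adjusted p = 0.0612) passed the test in edgeR without replicate 4 of iWAT MetR_CE, its highest library (1.25, adjusted p = 0.0175), in a fit of the 13 MetR_CE libraries alone (adjusted p = 0.00229), with the mouse as a replicate block (0.013), with RLE factors (0.0487) and under a stricter count filter (0.0458).

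At the far end stood Slc27a2, Acot11 and Pank1, genes of acyl-CoA and coenzyme A metabolism. Acot11, an acyl-CoA thioesterase of brown fat, ranged from 2031 to 2472 CPM in iBAT and from 140 to 503 CPM in iWAT (medians 2203 and 260), a difference of 2.99 ± 0.40 (adjusted p = 2.69e-07). Slc27a2, which imports and activates long-chain fatty acids, ranged from 401 to 574 CPM and from 36.1 to 93.1 CPM (medians 455 and 48.7) and differed by 3.03 ± 0.40 (adjusted p = 2.1e-07). Pank1, which starts coenzyme A synthesis, was at 986 and 160 CPM (medians) and differed by 2.54 ± 0.24. The depots overlapped for none of these 3, and iWAT held 12.6%, 12.2% and 17.2% of the iBAT level. All 3 had narrowed, from 4.96, 5.80 and 4.52.

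Over the whole list, the iWAT level relative to iBAT rose from a median of 6.64% (range 1.78% to 93.3%) in Ctrl_RT to 31.8% (range 12.2% to 82.4%) in MetR_CE mice. The iWAT libraries of MetR_CE mice differed among themselves: replicate 2 was the lowest of 6 for 16 of the 25 genes and replicate 1 the highest for 14. In the 6 MetR_CE mice with both depots, Ucp1 was higher in iBAT in 6 of 6, by 1.46 to 2.85 log2 units, as were Cidea, Cox7a1 and Slc27a2.

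**Figure D2:**
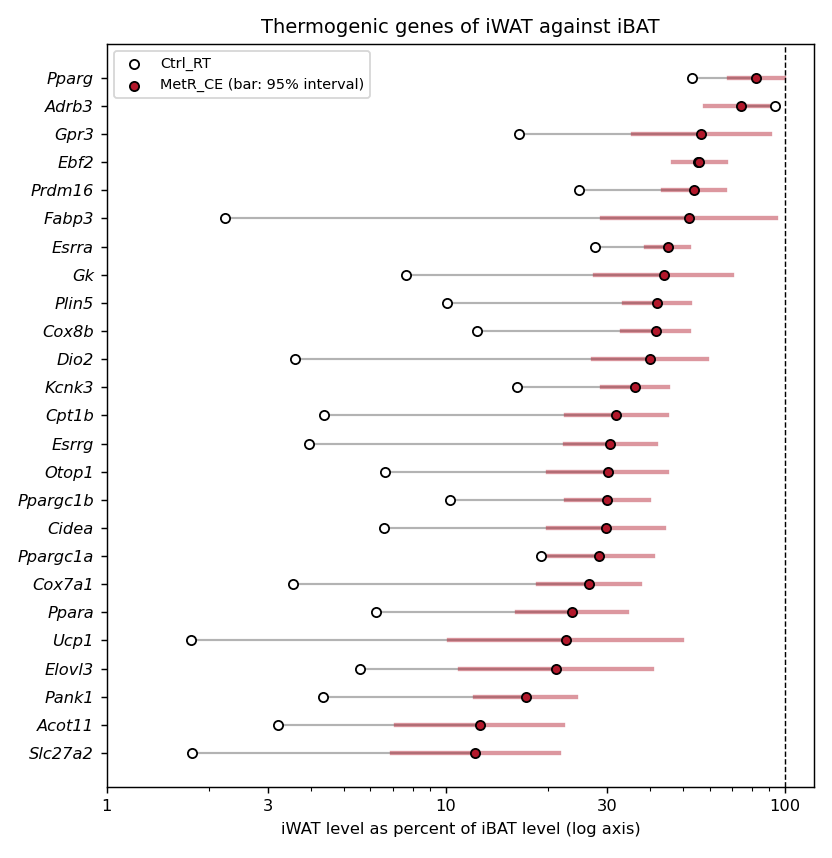
Level in iWAT as a percent of that in iBAT for the 25 thermogenic genes (log axis), open circles for Ctrl_RT and filled circles for MetR_CE mice with the 95% interval of the fit, which covers library spread. Slc27a2 (12.2%) and Acot11 (12.6%) lie farthest from equality and Pparg (82.4%) nearest to it; Ucp1 moved from 1.78% to 22.6%.

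Levels in iWAT after a single stimulus are given from the table of all 54 iBAT and iWAT libraries scaled together, without a test. Mean Ucp1 was 140 ± 138 CPM (SD, n = 7) in Ctrl_RT, 1734 ± 1308 (n = 7) in MetR_RT, 2409 ± 1310 (n = 7) in Ctrl_CE and 3408 ± 1054 CPM (n = 6) in MetR_CE mice. Neighbouring groups after Ctrl_RT overlapped, since MetR_RT libraries reached 3180 CPM and Ctrl_CE libraries 3966 CPM. The iBAT mean on the same scale was 7878 ± 1104 CPM in Ctrl_RT mice (n = 6), above the highest iWAT library of any group (4990 CPM). Mest, described below, was ordered otherwise in iWAT, with 12.2 ± 8.51 CPM in Ctrl_RT, 22.9 ± 27.2 in Ctrl_CE, 69.2 ± 87.3 in MetR_RT and 260 ± 105 CPM in MetR_CE mice. Its MetR_RT libraries ran from 3.78 to 250.6 CPM and overlapped every other group.

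Most genes of mitochondrial oxidation remained higher in iBAT, and most of their differences narrowed. The nuclear-encoded respiratory chain, whose complexes pass electrons to oxygen and make ATP, had 82 measured genes, of which 69 were higher in iBAT (14.4% of all genes), 2 higher in iWAT (21.8%) and 11 not called in MetR_CE mice, against 78 (17.7%), 2 (23.7%) and 2 in Ctrl_RT mice. The difference narrowed for 71 and widened for 0, and its median went from 1.74 to 0.916. Tested against the 1.5-fold bound itself, 27 negative changes were called in place of 70. In iWAT 66 rose and 1 fell, whereas in iBAT 0 rose and 0 fell. Library totals in place of TMM left 44 of the 82 higher in iBAT and 3 higher in iWAT. Of the 13 protein-coding genes of the mitochondrial genome, 11 were higher in iBAT with a median of 1.05, from 2.23 in Ctrl_RT mice.

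Single enzymes gave the size of the differences. Ndufs1 of complex I ranged from 640 to 685 CPM in iBAT and from 280 to 425 CPM in iWAT and differed by 1.002 ± 0.10 (adjusted p = 3.08e-09), from 2.23. Sdha of complex II ranged from 2979 to 3196 CPM and from 1092 to 1713 CPM and differed by 1.24 ± 0.12. Uqcrc1 of complex III differed by 1.15 ± 0.11, from 2.65. None of these 3 overlapped between depots. The exceptions on the iWAT side were Atp5g1, a c-ring subunit of ATP synthase, at medians of 2.35 CPM in iBAT and 12.6 CPM in iWAT (-2.37 ± 0.24), and Atpif1, which inhibits ATP synthase running in reverse, at 3.38 and 5.52 CPM (-0.73 ± 0.12). Both stood at low levels in all libraries, and near-identical copies of Atp5g1 elsewhere in the genome make its count uncertain.

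Genes of fuel entry followed the same course. Of 22 genes of fatty acid oxidation, 18 were higher in iBAT (14.4% of all genes) and 2 in iWAT (21.8%), with a median of 1.18, from 2.10 in Ctrl_RT mice, and 21 narrowed. Of 21 genes of the tricarboxylic acid cycle and pyruvate dehydrogenase, 19 were higher in iBAT and 1 in iWAT, against the same shares of all genes, with a median of 1.18, from 2.15, and 17 narrowed. Hadha, the trifunctional protein of beta-oxidation, ranged from 3436 to 3699 CPM in iBAT and from 1029 to 1839 CPM in iWAT and differed by 1.44 ± 0.15 (adjusted p = 1.66e-09). Acsl5, which activates fatty acids, had the largest difference of the oxidation list, with 2705 to 3240 CPM against 176 to 623 CPM and 3.18 ± 0.23 (adjusted p = 2.85e-12). The genes higher in iWAT were Cpt1a and Acot2 of the oxidation list and Pcx, pyruvate carboxylase, which feeds the cycle with oxaloacetate. The call of Acot2 was not stable: its difference went from -0.60 (adjusted p = 0.0297) to -0.15 (adjusted p = 0.428) without replicate 4 of iWAT MetR_CE and to -0.37 (adjusted p = 0.0939) with the mouse as a replicate block. It was also lost without replicate 2, 4 or 7 of iBAT or replicate 5 of iWAT (adjusted p between 0.0526 and 0.0592), and with RLE factors, DESeq2 or filterByExpr.

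Several steps are encoded by a common gene and by a second gene typical of muscle or brown fat, and the pairs did not all follow the same pattern. Cox7a1, the muscle and brown fat form of a cytochrome c oxidase subunit, ranged from 265.2 to 327 CPM in iBAT and from 51.9 to 131 CPM in iWAT (medians 312 and 82) and differed by 1.92 ± 0.24 (adjusted p = 1.07e-07), from 4.82. Its common form Cox7a2 differed by 0.92 ± 0.10, from 1.59. Cox8b differed by 1.26 ± 0.16 and Cox8a by 0.63 ± 0.08, from 3.01 and 1.35. For carnitine palmitoyltransferase 1, which admits fatty acids to mitochondria, the signs were opposite. Cpt1b ranged from 95.8 to 111 CPM in iBAT and from 21.2 to 43.6 CPM in iWAT, a difference of 1.65 ± 0.24, whereas Cpt1a ranged from 34.2 to 46.6 CPM in iBAT and from 55.1 to 124 CPM in iWAT, a difference of -1.08 ± 0.13 (adjusted p = 7.15e-08). Neither overlapped between depots. Slc25a4, the muscle form of the ADP/ATP carrier, ranged from 307 to 370 CPM and from 293 to 413 CPM and differed by 0.06 ± 0.08 (adjusted p = 0.547), from 0.91 in Ctrl_RT mice. Within the 6 MetR_CE mice with both depots, its common form Slc25a5 was higher in iBAT in 6, by a median of 0.374. The common Cox6a1 was higher in iBAT in 6 of these mice. Its muscle form Cox6a2 was higher in iBAT in only 2, with log2 differences from -4.42 to 2.7.

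Among genes of depot identity, Zic1 and Zic4 stayed far apart. Zic1 ranged from 13.7 to 29.9 CPM (median 18.4) in iBAT and from 0 to 0.261 CPM (median 0.066) in iWAT of MetR_CE mice, and no iWAT library came near iBAT. The difference was 7.58 ± 0.42 (adjusted p = 1.4e-14), against 8.14 ± 0.45 in Ctrl_RT mice, and its change of -0.55 ± 0.82 did not pass the test (adjusted p = 0.698). Zic4, its neighbour in the genome, ranged from 0.816 to 1.86 CPM in iBAT and from 0 to 0.0423 CPM in iWAT and differed by 6.42 ± 0.54, with a change of -0.08 that was not called. Of the 9 reported brown identity genes, 3 were higher in iBAT (Zic1, Mpzl2 and S100b), 2 were higher in iWAT (En1 and Sirpa) and 4 were not called. Over all genes 14.4% were higher in iBAT and 21.8% in iWAT, so the iWAT count was near its share. S100b, a calcium-binding protein, narrowed from 3.10 to 1.55 ± 0.15, and Lhx8 was at medians of 3.47 CPM in iBAT and 4.12 CPM in iWAT (-0.27 ± 0.25, adjusted p = 0.371).

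Hox genes, whose order along each cluster follows position along the body axis, differed in both directions. Of 39 genes 30 could be tested, and in MetR_CE mice 5 were higher in iBAT (14.4% of all genes), 19 higher in iWAT (21.8%) and 6 not called, with a median of -1.02, or -0.961 with the 3 genes at 0 in every iBAT library set at their bound. In Ctrl_RT mice the counts were 4, 16 and 10. The change of the difference was called for 2 of the 30, Hoxa4, which narrowed, and Hoxa9, which widened. Hoxa10 was at 0 counts in all 7 iBAT libraries of MetR_CE mice and ranged from 19.3 to 23.5 CPM in iWAT, at least 1050-fold higher against a floor of 3 counts over the iBAT group. Hoxc10 was at 0 to 0.048 CPM in iBAT and 29.5 to 37 CPM in iWAT, and Hoxc9 at 0 to 0.0531 CPM and 13 to 17.7 CPM. Hoxc8 ranged from 1.52 to 14 CPM in iBAT and from 73.3 to 86.2 CPM in iWAT and differed by -3.49 ± 0.28 (adjusted p = 2.45e-11), against -3.32 in Ctrl_RT mice.

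On the iBAT side stood anterior members. Hoxa5 ranged from 38.8 to 47.2 CPM in iBAT (median 46.4) and from 5.76 to 8.25 CPM in iWAT (median 7.27), without overlap, and differed by 2.61 ± 0.12 (adjusted p = 1.3e-16), against 2.19 in Ctrl_RT mice. Hoxa4 ranged from 12.3 to 15.8 CPM and from 2.96 to 4.65 CPM, and narrowed from 2.94 to 1.87 ± 0.13 as it rose in iWAT by 0.995. Divided by paralogue number, a split made after the values were seen, 5 of the 13 tested genes numbered 1 to 5 were higher in iBAT and 4 in iWAT, and of the 17 numbered 6 to 11, 0 were higher in iBAT and 15 in iWAT. The plot of differences by paralogue number shows this order.

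**Figure D3:**
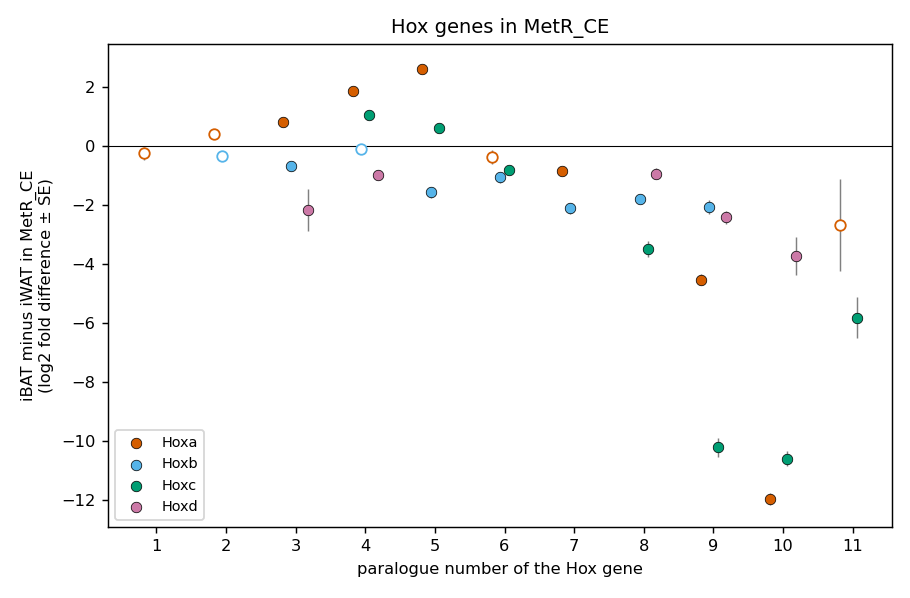
Log2 difference between iBAT and iWAT in MetR_CE mice (y axis, error bar SE) of the 30 tested Hox genes by paralogue number (x axis), coloured by cluster, with open circles for genes that were not called. The values fall from 2.61 for Hoxa5 to about -10 for Hoxc9 and Hoxc10; Hoxa10, Hoxa11 and Hoxc11 were at 0 in every iBAT library and their plotted values are fitted, not measured, sizes.

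Of 29 other patterning factors tested, 4 were higher in iBAT (14.4% of all genes) and 12 in iWAT (21.8%) of MetR_CE mice, against 5 and 10 in Ctrl_RT mice. The change was called for 4, a share near the 14.1% of all genes. Tbx5, a T-box factor of heart and forelimb, was at 9.77 to 12.4 CPM in iBAT and 2.29 to 4.6 CPM in iWAT, a difference of 1.69 ± 0.17 in MetR_CE and of 1.69 in Ctrl_RT mice. Tbx15, a T-box factor of adipose and skeletal development, was at 1.85 to 5.89 CPM and 12.6 to 27.8 CPM (-2.58 ± 0.24, from -2.37). Emx2, a homeobox factor of the urogenital tract and forebrain, was at 0 to 0.18 CPM in iBAT and 2.28 to 8.42 CPM in iWAT (-6.13 ± 0.51, from -6.41). None of these 3 overlapped between depots.

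Of 10 genes reported for beige adipocytes, 10 were higher in iWAT of Ctrl_RT mice (23.7% of all genes), and in MetR_CE mice 7 were higher in iWAT (21.8%), 1 in iBAT (14.4%) and 2 not called. Between Ctrl_RT and MetR_CE mice, 0 rose and 5 fell in iWAT. All 8 macrophage and 8 fibroblast and progenitor markers fell there too, with median log2 changes of -2.57 and -1.78, and their part was not tested. Tmem26, a membrane protein, fell in iWAT from a range of 5.11 to 14.1 CPM to one of 0.149 to 0.561 CPM. In iBAT of MetR_CE mice it was at 0 to 0.217 CPM, and the difference narrowed from -7.07 to -2.09 ± 0.46 (adjusted p of the change 2.83e-05). Cd40, an immune costimulatory receptor that also marks other cells, moved from -2.75 to 0.82 ± 0.20. Tbx1 and Slc27a1, a fatty acid transporter, stayed higher in iWAT. Slc27a1 ranged from 201 to 319 CPM in iBAT and from 903 to 1329 CPM in iWAT and widened from -1.31 to -2.24 ± 0.13.

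White adipocyte genes moved apart instead of together. Of 11 tested, 10 were higher in iWAT in both conditions (21.8% of all genes in MetR_CE mice) and 0 in iBAT (14.4%). The difference widened for 5 (1.46% of all genes) and narrowed for 0 (8.82%), and its median went from -3.56 to -5.19. Among all genes higher in iWAT of Ctrl_RT mice, 5.26% widened and 18.8% narrowed. In iWAT 4 of the 11 rose and 0 fell between Ctrl_RT and MetR_CE mice, and in iBAT 1 rose and 6 fell. The remaining member, Npr3, the clearance receptor for natriuretic peptides, differed by -0.56 ± 0.33 (adjusted p = 0.164).

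Lep ranged from 3.29 to 6.25 CPM (median 4.85) in iBAT and from 243.3 to 757 CPM (median 622) in iWAT of MetR_CE mice, far apart in all libraries. It differed by -6.89 ± 0.45 (adjusted p = 3.09e-13), 119-fold, against -3.56 ± 0.40 in Ctrl_RT mice, where iBAT held 2.43 to 35.3 CPM and iWAT 75.9 to 293 CPM. The change of -3.33 ± 0.53 (adjusted p = 2.56e-05) had a part in both depots, a rise of 1.49 in iWAT and a log2 change of -1.84 in iBAT that was also called. Mest, an imprinted gene tied to adipocyte enlargement, ranged from 2.57 to 5.65 CPM in iBAT and from 89.4 to 371 CPM in iWAT (medians 3.52 and 281.3). It differed by -6.13 ± 0.43 (adjusted p = 1.67e-12), against -2.67 in Ctrl_RT mice, and had risen by 4.41 in iWAT.

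For Car3, carbonic anhydrase 3, an abundant white fat protein, the depot that moved was iBAT. Its iBAT range went from 614 to 1636 CPM in Ctrl_RT mice to 50.2 to 282.3 CPM in MetR_CE mice, a log2 change of -2.82, while iWAT ranged from 4602 to 9107 CPM and from 3927 to 7397 CPM (a log2 change of -0.42, not called). The difference widened from -3.07 to -5.48 ± 0.35 (adjusted p of the change 0.000103). Adipoq, the hormone adiponectin, ranged from 389 to 457 CPM in iBAT and from 1226 to 1889 CPM in iWAT and differed by -1.86 ± 0.10, from -1.27. Its change of -0.59 ± 0.14 lay at the 1.5-fold bound and fell below it, or lost the call, in 22 of 35 alternatives. Retn (resistin) differed by -5.19 ± 0.22, from -4.22, and widened. Cfd (adipsin, complement factor D), at 75.8 to 408 CPM in iBAT and 3728 to 7670 CPM in iWAT, differed by -4.76 ± 0.36, and Nnat (neuronatin), at 2.74 to 6.98 CPM and 260 to 1215 CPM, by -6.93 ± 0.58. The changes of these last genes, -0.78 ± 0.45 and -1.72 ± 0.68, were not called, and both were called with the mouse as a replicate block (-0.91, adjusted p = 0.017, and -1.30, adjusted p = 0.00218).

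**Figure D4:**
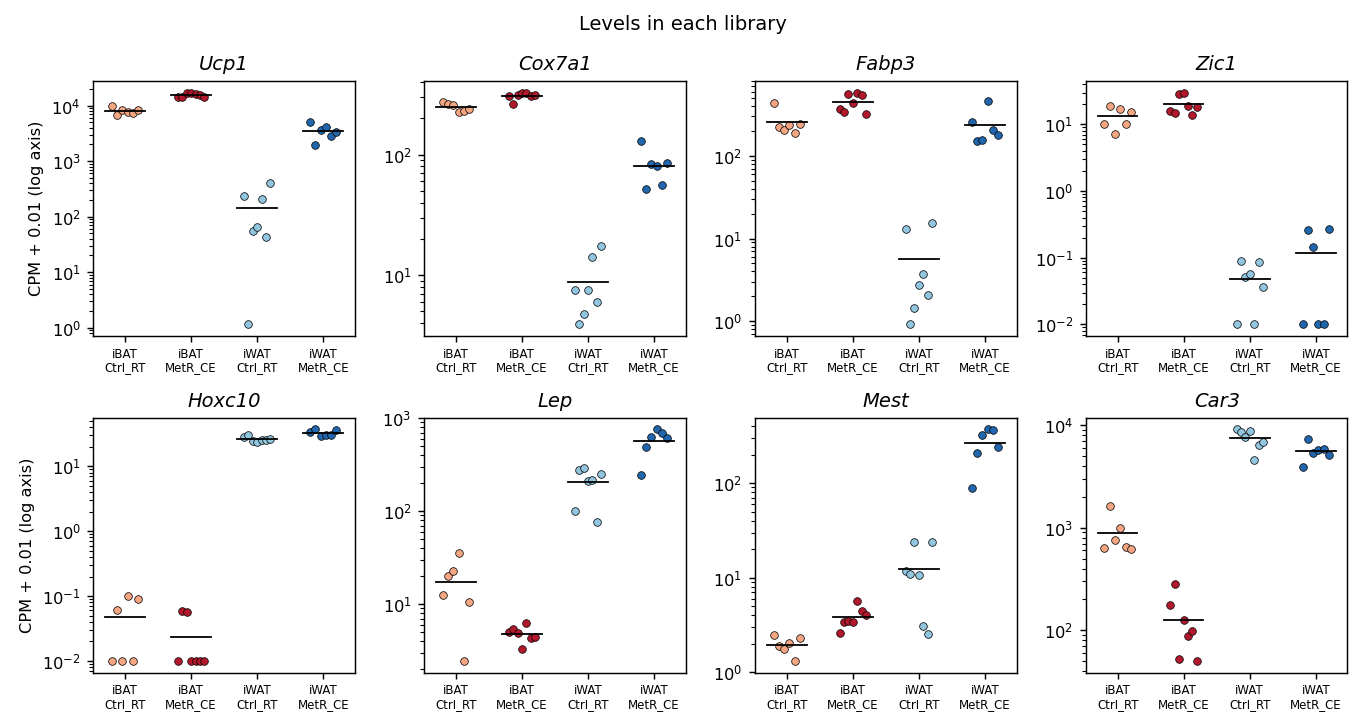
CPM after TMM scaling (log axis, 0.01 added) of 8 genes in each library of iBAT and iWAT from Ctrl_RT and MetR_CE mice, with each group's mean as a line. Ucp1, Cox7a1 and Fabp3 of iWAT approach iBAT, Zic1 and Hoxc10 do not, Lep and Mest of iWAT move away from iBAT, and Car3 falls in iBAT.

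Genes of lipid synthesis were divided between the depots. Of 21 genes of fatty acid and triglyceride synthesis, 11 were higher in iBAT (14.4% of all genes) and 3 in iWAT (21.8%), namely Scd1, Srebf1 and Dgat2. The other 7 were not called. The median was 0.711, from 1.14, and 2 narrowed (8.82% of all genes), both among the 13 that were higher in iBAT of Ctrl_RT mice. Of all genes higher in iBAT of Ctrl_RT mice, 24.6% narrowed. The change was called, and negative, for 5 genes and for 10 with the mouse as a replicate block, where Fasn was among those gained (adjusted p = 0.0197). Without replicate 5 of iWAT Ctrl_RT it was called for 11 genes, and without any other single library for 4 to 6. Fasn, fatty acid synthase, ranged from 45581 to 54611 CPM in iBAT and from 11683 to 37923 CPM in iWAT and differed by 0.88 ± 0.22 (adjusted p = 0.00156), from 1.47. Gpd1, which makes glycerol 3-phosphate and was listed among the energy cycles, ranged from 24887 to 28196 CPM and from 4021 to 11081 CPM and differed by 1.86 ± 0.18 (adjusted p = 8.05e-10). Scd1, the main stearoyl-CoA desaturase, ranged from 24815 to 45765 CPM in iBAT and from 44815 to 78096 CPM in iWAT, with a small overlap, and differed by -0.78 ± 0.20 (adjusted p = 0.00185). Dgat2, which completes triglyceride synthesis, turned round: it differed by 0.31 ± 0.15 (not called) in Ctrl_RT mice and by -1.53 ± 0.15 (adjusted p = 1.6e-09) in MetR_CE mice. Its iBAT range went from 1616 to 2611 CPM to 626 to 988 CPM, and iWAT of MetR_CE mice held 1793 to 3116 CPM.

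Of 16 lipolysis and lipid droplet genes, 3 were higher in iBAT (Cidea, Plin2 and Plin5), 2 in iWAT (Plin4 and Angptl4) and 11 not called, with a median of -0.232. These shares were near the 14.4% and 21.8% of all genes. Library totals raised the iWAT count to 8. Plin4, a droplet coat protein of white adipocytes, ranged from 319 to 483 CPM in iBAT and from 1490 to 2781 CPM in iWAT and widened from -0.95 to -2.55 ± 0.18. Plin5, which tethers droplets to mitochondria, ranged from 348 to 395 CPM in iBAT and from 122 to 197 CPM in iWAT and narrowed from 3.30 to 1.25 ± 0.16.

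Of 19 genes of creatine, calcium and other energy-spending cycles, 7 were higher in iBAT (14.4% of all genes) and 3 in iWAT (21.8%). Alpl, the phosphatase of the futile creatine cycle, was at 98.1 to 115 CPM in iBAT and 12.9 to 26.6 CPM in iWAT, a difference of 2.51 ± 0.16 (adjusted p = 1.3e-13), from 4.06. The enzymes of creatine synthesis were on the other side. Gatm differed by -1.88 ± 0.35 and Gamt by -3.04 ± 0.16. Gamt was at 0.73 to 1.87 CPM in iBAT and 7.82 to 14 CPM in iWAT. The muscle genes Ckm, Atp2a1 and Ryr1 on this list were not called; Atp2a1 ran from 3.08 to 1269 CPM among the iWAT libraries, beside the wide spread of the muscle markers, whose part was not tested.

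Of 12 adrenergic and natriuretic receptors, 2 were higher in iBAT (14.4% of all genes) and 4 in iWAT (21.8%), against 5 (17.7%) and 3 (23.7%) in Ctrl_RT mice. Adrb1, the beta-1 receptor, was at 59.1 to 83.5 CPM in iBAT and 16.8 to 25.1 CPM in iWAT and differed by 1.67 ± 0.19 (adjusted p = 1.11e-08), from 2.96. Adra1a, an alpha-1 receptor, was at 105 to 146 CPM and 22.8 to 47.7 CPM and differed by 1.84 ± 0.15, from 2.75. Adra1b was on the iWAT side (-2.98 ± 0.36) at under 2 CPM. Npr2, the receptor of C-type natriuretic peptide, was at 26.3 to 34.3 CPM in iBAT and 70.7 to 92.1 CPM in iWAT and widened from -0.76 to -1.43 ± 0.07.

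Of 18 secreted factors, 2 were higher in iBAT (Bmp8b and Nrg4, 14.4% of all genes) and 11 in iWAT (21.8%). Among the 11, the calls of Fgf21 and Il6 were not stable. That of Fgf21 was lost without replicate 4 of iWAT MetR_CE (-0.51, adjusted p = 0.1) and, below the 1.5-fold bound, with the mouse as a replicate block (-0.57). Il6, at 0 in iBAT and a mean of 0.0513 CPM in iWAT, lost its call without replicate 5 of iWAT MetR_CE (adjusted p = 0.0929). Bmp8b, a bone morphogenetic protein that raises the response of brown fat to noradrenaline, ranged from 43 to 79.8 CPM in iBAT and from 1.61 to 6.05 CPM in iWAT and differed by 4.06 ± 0.32 (adjusted p = 1.3e-11), from 7.31. It rose in both depots, by 5.95 in iWAT and 2.696 in iBAT. Of the family on the iWAT side, Bmp2 was at 4.84 to 8.93 CPM in iWAT and 0.548 to 1.33 CPM in iBAT (-2.92 ± 0.20). Bmp7 was at 1.75 to 6.22 CPM and 0 to 0.576 CPM (-4.10 ± 0.48).

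Markers of other cells in the depot also stayed on the iWAT side. All 8 macrophage and 8 fibroblast and progenitor markers were higher in iWAT in both conditions (21.8% of all genes in MetR_CE mice). Their medians were -2.48 and -2.43 in MetR_CE mice. Of these markers, 7 and 5 narrowed (8.82% of all genes, and 18.8% of those higher in iWAT of Ctrl_RT mice). The macrophage markers summed to at most 81.8 CPM (median 56.8) in iBAT and at most 593 CPM (median 318) in iWAT of MetR_CE mice, after 1680 to 2910 CPM in iWAT of Ctrl_RT mice. The fibroblast and progenitor markers summed to a median of 169 CPM in iBAT and to 746 to 1540 CPM in iWAT, after 3690 to 11100 CPM. Lyz2, the lysozyme of macrophages, was at 13.5 to 21.8 CPM in iBAT and 64.2 to 163 CPM in iWAT and differed by -2.48 ± 0.18, from -3.98. Col1a1, the main fibroblast collagen, differed by -2.87 ± 0.30, from -4.66. The adipocyte markers summed to 16200 to 18600 CPM in iBAT and 22200 to 23900 CPM in iWAT of MetR_CE mice, without overlap. In Ctrl_RT mice the sums were 16300 to 18300 CPM and 15000 to 19300 CPM, and the depots overlapped. Abundant members weigh most in these sums. Taken singly in MetR_CE mice, 1 of the 7 (Adipoq) was called higher in iWAT, 0 in iBAT and 6 not called, with a median of -0.418. How far the shares of these cells set the differences of other genes was not tested.

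For the other cell types, 6 of 8 T lymphocyte, 6 of 7 Schwann cell and 5 of 10 epithelial markers were higher in iWAT (21.8% of all genes). So were 2 of 4 lymph node stroma, 2 of 5 mesothelial, 2 of 6 smooth muscle and 3 of 11 skeletal muscle markers. On the iBAT side were 1 mesothelial and 1 smooth muscle marker (14.4% of all genes). The lists are short, and the muscle counts lay not far from these shares. The skeletal muscle count was 0 without replicate 6 of iWAT MetR_CE and 1 without replicate 2, 3, 4 or 7 of iBAT MetR_CE. The epithelial count was 2 without replicate 6 of iWAT or replicate 3 or 4 of iBAT, and 3 without replicate 2 or 5 of iBAT. B lymphocyte markers were not called except for 1 of 9, Ighm, an immunoglobulin chain, at 8.32 to 35.5 CPM in iBAT and 93.9 to 286.5 CPM in iWAT. Of the endothelial markers, 2 were higher in iBAT and 1 in iWAT, not far from the shares of all genes, and 5 were not called. Kdr, the main receptor for vascular endothelial growth factor, was at 347 to 423 CPM in iBAT and 144 to 191 CPM in iWAT and differed by 1.24 ± 0.11. T lymphocyte markers summed to at most 4.22 CPM and mesothelial markers to at most 3.69 CPM in any MetR_CE library, and the epithelial sum reached 33 CPM in 1 iWAT library.

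**Figure D5:**
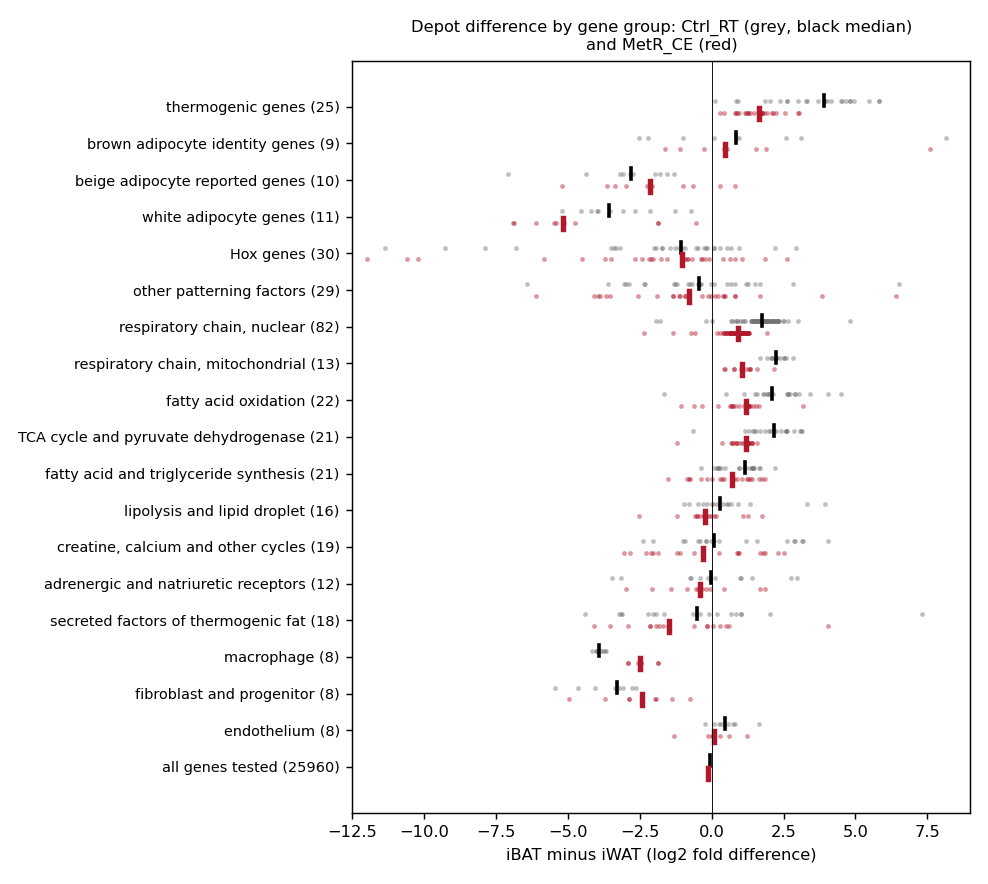
Log2 difference between iBAT and iWAT of the genes of each list (points) and the list's median (bar), grey and black for Ctrl_RT and red for MetR_CE mice, with the number of genes in brackets. The thermogenic, respiratory, oxidation and cycle lists move towards 0 from the iBAT side and the macrophage and fibroblast lists from the iWAT side, the white adipocyte list moves away from 0, and the Hox list hardly moves (-1.08 to -1.02).

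Beyond the lists, genes were named by the size of their difference in MetR_CE mice, with no overlap between the libraries. After Zic1, the largest on the iBAT side was Rspo4, an R-spondin that strengthens Wnt signals, at 14.9 to 34.9 CPM in iBAT and 0.127 to 0.561 CPM in iWAT, 6.43 ± 0.32 (adjusted p = 9.86e-16), with 5.57 in Ctrl_RT mice. Lgr6, an R-spondin receptor, ranged from 416 to 591 CPM in iBAT and from 19.2 to 60.5 CPM in iWAT and differed by 3.84 ± 0.33. Lgr6 narrowed from 8.005 after rising by 6.03 in iWAT, where the log2 change of Rspo4 was 0.02 and was not called. Gmpr, GMP reductase, was at 838 to 1663 CPM and 30.7 to 123 CPM and differed by 4.00 ± 0.29. The others of the 10 were Mmd2, Gldn, Bmp8b, Ttc25, Myo5b and S1pr5, between 3.38 and 4.15. Of these 10, 6 narrowed (Mmd2, Bmp8b, Gmpr, Lgr6, Myo5b and S1pr5), and Gldn widened, from 2.16 to 4.13 ± 0.38.

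On the iWAT side the 10 were Hoxa10, Hoxc10, Hoxc9, Alb, Nnat, Lep, Stc2, Serpina3c, Serpina3n and Crtac1. Stc2, a secreted glycoprotein, was at 0 to 0.433 CPM in iBAT and 17 to 34 CPM in iWAT and differed by -6.44 ± 0.29 (adjusted p = 2.03e-16), from -4.57. Crtac1, an extracellular matrix protein, differed by -6.18 ± 0.41, from -2.88. Serpina3c (-6.28 ± 0.25) and Serpina3n (-6.23 ± 0.34) belong to a family of near-identical protease inhibitor genes, whose reads can be divided among copies. Alb, serum albumin, was at 40.2 to 86.6 CPM in iWAT and 0.0401 to 2.1 CPM in iBAT, a difference of -7.20 ± 1.01 (adjusted p = 5.98e-07). In Ctrl_RT mice 1 iBAT library held 43.8 CPM of Alb, and the difference there was -1.56 ± 0.73 (adjusted p = 0.0703). Ttr and Fgb, also abundant in liver and named here after their values were seen, averaged 0.128 and 0.153 CPM in iWAT of MetR_CE mice.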

How the data were processed

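The deposited table holds estimated counts per gene, as whole numbers without normalization, which the authors made with Salmon 1.9.0 on paired-end poly(A) libraries against mm10 annotation and summed to genes. Columns were matched to samples by library number. In 1 of the iBAT MetR_CE libraries the column's treatment tag differs from the title, and the title was used. Genes with at least 10 counts over the 26 libraries (25960 of 56884) were fitted in 4 groups with edgeR 4.0.16 (R 4.3.3; TMM, quasi-likelihood test, Benjamini-Hochberg over all genes). Called means an adjusted p under 0.05 and a log2 value of at least 0.585, or 1.5-fold. SE is the log2 value divided by the root of F. Within a depot, libraries are separate animals, but most mice gave both depots, and the main fit took all libraries as independent. Mouse IDs in the labels pair the depots of 6 MetR_CE and 6 Ctrl_RT mice. Same-mouse deviations correlated between -0.457 and 0.374 in MetR_CE and between -0.425 and 0.527 in Ctrl_RT mice, and the block was run as an alternative. On simulated counts of 25390 genes, the test recovered 88 of 100 genes changed by log2 1 and 100 of 100 by log2 2 for the depot difference in MetR_CE mice. For the change of that difference it recovered 79 of 100 and 98 of 100. The changed genes were drawn from well-counted genes and all others were simulated without a difference between groups. The rates therefore do not cover genes of low counts. Named genes were list members, the 10 largest called differences and changes of those differences in each direction at a mean of at least 10 CPM, and the 5 largest CPM differences in each direction. The 27 lists and the comparison were chosen with earlier results of these data known. Alternatives were RLE factors, library totals, other filters, DESeq2 1.42.0, glmTreat, the mouse block, other sets of libraries and leaving out each library. Read totals limit low genes only, and floors cover counting error only.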

Additional observations from a re-analysis of the deposited data

Results flagged for a closer look

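In 83 groups of 6 or 7 MetR_CE libraries of 42 genes, 5 had a library far from the rest, where chance gives about 1 in 20. The Ctrl_RT groups were not searched. Elovl3 was at 660.5 CPM in replicate 1 of iWAT MetR_CE (next 362.3), and Fabp3 at 459.9 CPM in replicate 4 (next 259.2). In iBAT MetR_CE mice, Cox7a1 was lowest in replicate 2 at 265.2 CPM (next 304.4), Hoxc9 was highest in replicate 4 at 0.05311 CPM with the others at 0, and Alb was highest in replicate 5 at 2.105 CPM (next 0.6179).

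The change of the depot difference between Ctrl_RT and MetR_CE mice passed the interaction test (edgeR) for the 20 genes named by its size. On the positive side, where the lead of iWAT shrank or was lost, were Ms4a4c 5.353, Il1rn 4.913, Cthrc1 4.84, Timp1 4.124, Ms4a6d 3.588, Hmox1 3.362, Fcgr1 3.199, Il1rl1 3.004, Oasl1 2.983 and Rian 2.915 (log2). Fcgr1 (-1.85, adjusted p = 0.00734) and Il1rl1 (-2.56, adjusted p = 0.00137) were still higher in iWAT of MetR_CE mice. All 10 fell in iWAT between Ctrl_RT and MetR_CE mice, and Hmox1, heme oxygenase 1, also rose in iBAT by 1.47. The summed macrophage markers of iWAT fell alongside, as given above, and their part was not tested. Ms4a4c reached 77.5 CPM in 1 iWAT library of Ctrl_RT mice whose group median was 6.72 CPM; its change lost the call in 14 of 35 alternatives. On the negative side were Alb -5.643, Fabp3 -4.541, Cyp2b10 -4.194, Lgr6 -4.168, Fam131c -3.974, Ucp1 -3.666, Kng2 -3.663, Dio2 -3.476, Mest -3.462 and Lep -3.334. Of these, Fabp3, Cyp2b10, Lgr6, Fam131c, Ucp1, Kng2 and Dio2 narrowed from the iBAT side, and Mest and Lep widened on the iWAT side. The change of Alb was not called with the mouse as a replicate block (-3.51, adjusted p = 0.0889).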

How the results depend on the processing

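Library totals without a scaling factor gave 2192 genes higher in iBAT of MetR_CE mice, and 2461 higher in iBAT and 9687 higher in iWAT of Ctrl_RT mice; the share of positive changes went from 41.6% to 57.6%. Testing against the 1.5-fold bound itself (glmTreat) left 525 positive and 723 negative changes, and the 4-fold bound left 818 and 2441 genes in MetR_CE mice. The change of Elovl3 was lost under DESeq2 (0.04723, adjusted p = 0.985), and the cause was not tested. With the mouse as a replicate block, 3424 and 5075 genes were called in MetR_CE mice, and the pairing of depots moved no count over all genes by over 1.5 times; for fatty acid and triglyceride synthesis it moved the called changes from 5 to 10. In 0 genes did a called difference take a call of the opposite sign under any alternative. RNA of whole depots, male mice alone and 6 to 7 libraries a group limit what the values represent.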
